A study of Homo sapiens with 14 samples.

Results

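The 7 genes of the JUN and FOS families (JUN, JUNB, JUND, FOS, FOSB, FOSL1 and FOSL2) were examined out of 19821 protein-coding genes in the GENCODE annotation of hg19. For each gene, the peaks that overlapped its body or the 50 kb on either side of it were collected, which gave windows of 101.8 to 124.9 kb. The peaks came from CUT&Tag, in which an antibody guides a transposase to its target inside permeabilised cells and the released fragments are sequenced. All samples were LX-2 cells, an immortalised line of human hepatic stellate cells, labelled wild type, which had been cultured for 2 days on a matrix labelled soft or stiff. Hepatic stellate cells are the liver cells that turn into matrix-producing myofibroblasts in fibrosis. There were 14 peak lists for 4 targets. Phosphorylated JUN (p-JUN), H3K4me3 and H3K27me3 had 2 libraries on each matrix, and H3K27ac had 1 merged list on each matrix. The soft libraries were titled 2K. The stiff libraries of the histone marks were titled 40K, whereas the stiff libraries of p-JUN were titled TCP, the study's abbreviation for tissue culture plastic. In the p-JUN comparison, stiff therefore stands for the libraries labelled stiff, and a difference in stiffness and one between gel and plastic cannot be told apart. Nothing in the labels shows that 2 replicates came from separate cultures, so the p-values measure only the spread between libraries, which may be technical.

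JUN proteins (JUN, JUNB, JUND) and FOS proteins (FOS, FOSB, FOSL1, FOSL2) are leucine zipper proteins that pair to form AP-1, a transcription factor that binds the TPA response element (TRE, TGACTCA) and, in some pairings, the cAMP response element (CRE, TGACGTCA). JUN proteins can pair with each other, whereas FOS proteins need a JUN partner. JUN kinases phosphorylate JUN in its activation domain, and the JUN gene is known to be controlled by AP-1 bound at its own start site. H3K4me3 marks active start sites, H3K27ac marks active promoters and enhancers, and H3K27me3 marks genes silenced by Polycomb.

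In the windows there were 65 p-JUN regions, each the union of peaks that shared at least 1 bp, out of 61411 in all. Of these, 48 were called in all 4 p-JUN libraries (73.8%), against 65.8% of all p-JUN regions. The windows also held 33 H3K27ac, 47 H3K4me3 and 1 H3K27me3 regions. The sequences below are the 101 bases around the highest p-JUN summit of 10 regions, from the plus strand of hg19, with matches to a searched motif in capitals. They were chosen because they are the start sites or the highest flanking summits of the genes, or because p-JUN differed there between the matrices. The region 39.6 kb upstream of JUN is shown as a flanking TRE of JUN with H3K27ac on both matrices.

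The summit at the JUN start site (chr1:59249772-59249872) lay beside TGATGTCA, which reads TGACATCA on the strand of the gene and is the variant site known from the JUN promoter. The same letters were found 46.1 kb upstream of JUN (chr1:59295748-59295848), where p-JUN was higher on stiff, and a TRE lay 39.6 kb upstream (chr1:59289273-59289373).
JUN start site: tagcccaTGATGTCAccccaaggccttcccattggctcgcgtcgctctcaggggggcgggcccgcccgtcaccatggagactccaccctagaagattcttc
JUN, 39.6 kb upstream: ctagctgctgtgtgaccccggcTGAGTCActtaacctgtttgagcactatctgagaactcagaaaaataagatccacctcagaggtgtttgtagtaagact
JUN, 46.1 kb upstream: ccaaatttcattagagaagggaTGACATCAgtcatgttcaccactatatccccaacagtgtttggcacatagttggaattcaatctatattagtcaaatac

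The JUNB window had a single region called in all 4 p-JUN libraries, 8.3 kb upstream of the gene in an intron of HOOK2 (chr19:12893925-12894025), and it held 2 TREs. The JUND start site (chr19:18392550-18392650) held a CRE, the site also bound by ATF and CREB proteins.
JUNB, 8.3 kb upstream: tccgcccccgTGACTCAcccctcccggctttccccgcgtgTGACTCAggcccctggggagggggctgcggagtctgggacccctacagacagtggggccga
JUND start site: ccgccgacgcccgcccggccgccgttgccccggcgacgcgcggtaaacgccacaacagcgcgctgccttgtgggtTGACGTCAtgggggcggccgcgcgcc

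At FOS the summit 0.3 kb upstream (chr14:75745216-75745316) had no exact match to a TRE or a CRE. Near matches, such as the tgcgtca in its sequence, were not searched. The FOS summit was not otherwise examined for AP-1 sites. This summit held the CArG box (CC, a run of A or T, and GG) of the serum response element, through which serum response factor is known to control FOS.
FOS start site: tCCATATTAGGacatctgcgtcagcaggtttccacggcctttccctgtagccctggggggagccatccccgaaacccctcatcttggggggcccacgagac

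By the number of summit fragments, the highest of all 65 regions lay 15.4 kb upstream of FOSL1 (chr11:65683229-65683329) beside a TRE. The highest summits away from start sites near FOSB (chr19:45959233-45959333, in an intron of ERCC1) and FOSL2 (chr2:28632040-28632140, in an intron of FOSL2) had no match to any motif searched. A TRE lay 31.8 kb upstream of FOSL2 (chr2:28583916-28584016), where p-JUN was lower on stiff.
FOSL1, 15.4 kb upstream: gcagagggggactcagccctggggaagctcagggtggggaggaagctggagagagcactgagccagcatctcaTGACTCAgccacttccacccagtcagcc
FOSB, 12.0 kb upstream: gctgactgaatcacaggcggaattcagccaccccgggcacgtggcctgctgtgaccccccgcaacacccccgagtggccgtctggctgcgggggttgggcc
FOSL2, 31.8 kb upstream: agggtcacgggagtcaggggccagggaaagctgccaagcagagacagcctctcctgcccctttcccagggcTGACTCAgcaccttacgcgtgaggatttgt
FOSL2, 16.4 kb downstream: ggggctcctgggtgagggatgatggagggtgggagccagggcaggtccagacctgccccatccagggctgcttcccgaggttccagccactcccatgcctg

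The state of the start sites was examined first. A gene was counted as carrying a mark if a peak lay within 1 kb of a start site of one of its protein-coding transcripts. H3K4me3 was called at all 7 genes in all 4 libraries, as at 62.8% of all protein-coding genes. H3K27me3 was called at none of them in any library, against 10.3% of all genes with a call in at least 1 library. p-JUN was called in all 4 libraries at 5 genes (JUN, JUND, FOSB, FOSL1 and FOSL2), against 38.2% of all genes, and in at least 1 library at all 7, against 53.2% of all genes. H3K27ac was called on both matrices at JUN and FOSB, against 21.2% of all genes, and on soft alone at JUND and FOS, against 10.7%. The start sites of JUNB, FOSL1 and FOSL2 had no H3K27ac peak in either list.

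The height of p-JUN at these start sites was then compared, as the number of fragments that overlapped the summit of a peak. In such bulk data, a mark in fewer cells and less of the mark per cell cannot be told apart. At JUN, the founding member of the family (chr1:59249460-59250923), the summit had 524 and 472 fragments on soft against 449 and 558 on stiff. It ranked 768 among the 40433 p-JUN regions called in all 4 libraries. At JUND, the most constantly expressed JUN gene (chr19:18392237-18393275), it had 283 and 259 on soft against 205 and 274 on stiff. At JUNB (chr19:12902268-12902544) a peak was called in stiff replicate 2 alone, with 34 fragments. In raw fragments the matrices overlapped at JUN and at JUND, and JUNB had no peak in 3 of the 4 libraries. Raw fragments are not corrected for differences between libraries. Heights were therefore also divided by the library median over regions called in all 4 libraries. JUND then had 3.45 and 3.7 on soft against 2.81 and 3.22 on stiff, without overlap. JUN still overlapped, with 6.39 and 6.74 on soft against 6.15 and 6.56 on stiff.

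Among the FOS genes, FOSL2 (chr2:28615071-28615949) had the highest start site summit, with 362 and 336 fragments on soft against 278 and 356 on stiff. FOSL1 (chr11:65666662-65668160) had 245 and 222 on soft against 207 and 260 on stiff. FOSB had 2 regions near its start sites. The upstream one (chr19:45970664-45971327) had 253 and 238 fragments on soft against 195 and 271 on stiff, and the downstream one (chr19:45972226-45974056) had 309 and 289 on soft against 290 and 340 on stiff. FOS, the classical immediate early gene, had low summits, with 48 and 53 fragments on soft, 35 in stiff replicate 2 and no call in stiff replicate 1 at 0.3 kb upstream (chr14:75744947-75745699). A neighbouring region 1.2 kb upstream of FOS (chr14:75743861-75744551) had 44 and 39 fragments on soft against 27 and 32 on stiff. Of the 7 regions called in all 4 libraries, this last one alone had no overlap of the matrices in raw fragments. Relative to the library median it did not overlap either. On that scale FOSL2 had 4.41 and 4.8 on soft against 3.81 and 4.19 on stiff, also without overlap. The FOSL1 region and both FOSB regions still overlapped.

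To compare the matrices, log2 summit fragments at the 40433 regions were centred on the median of each library over these regions. They were fitted with limma, with Benjamini-Hochberg adjustment. None of the 7 tested start site regions of the family passed the test. The log2 difference, stiff minus soft, was -0.05 ± 0.07 (SE) at JUN (limma adjusted p = 0.711), -0.25 ± 0.09 at JUND (limma adjusted p = 0.0533) and -0.20 ± 0.08 at FOSL2 (limma adjusted p = 0.0795). It was -0.06 ± 0.10 at FOSL1, -0.15 ± 0.09 and 0.02 ± 0.09 at the FOSB regions and -0.55 ± 0.22 at the FOS region 1.2 kb upstream (limma adjusted p = 0.0692). The JUND value passed the threshold when stiff replicate 2 was left out (-0.35, limma adjusted p = 0.0144), as did FOSL2 (-0.27, limma adjusted p = 0.0409). JUND also passed when regions with a mean under 50 fragments were left out (limma adjusted p = 0.0411).

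H3K4me3 at the start sites of JUN, JUND and FOSL1 was higher on the stiff matrix, by 0.52 to 0.60 on the log2 scale, and at the other 4 genes no difference passed the test. At JUN (chr1:59247565-59250957) the H3K4me3 summit had 240 and 319 fragments on soft against 494 and 675 on stiff. Divided by the library median over regions called in all 4 libraries, it was 1.79 and 1.92 on soft, 2.89 and 2.72 on stiff. This was a log2 difference of 0.60 ± 0.08 (SE, limma adjusted p = 0.00181). The soft and stiff libraries did not overlap.

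At JUND (chr19:18390379-18391588) the region lay within 1 kb of the start site but did not reach it. The summit, 1.3 kb downstream in a UTR of JUND, had 147 and 183 fragments on soft against 264 and 399 on stiff. Relative to the same median its height was 1.10 in both soft libraries and 1.54 and 1.61 on stiff. This was a log2 difference of 0.52 ± 0.09 (SE, limma adjusted p = 0.00658). FOSL1 encodes FRA-1, a FOS protein without the strong activation domain of FOS. At FOSL1 (chr11:65664837-65667915) the summit had 296 and 389 fragments on soft against 578 and 783 on stiff. Relative heights were 2.21 and 2.34 on soft against 3.38 and 3.16 on stiff, a log2 difference of 0.52 ± 0.07 (SE, limma adjusted p = 0.00194). At both genes the stiff libraries lay above the soft ones.

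**Figure D1:**
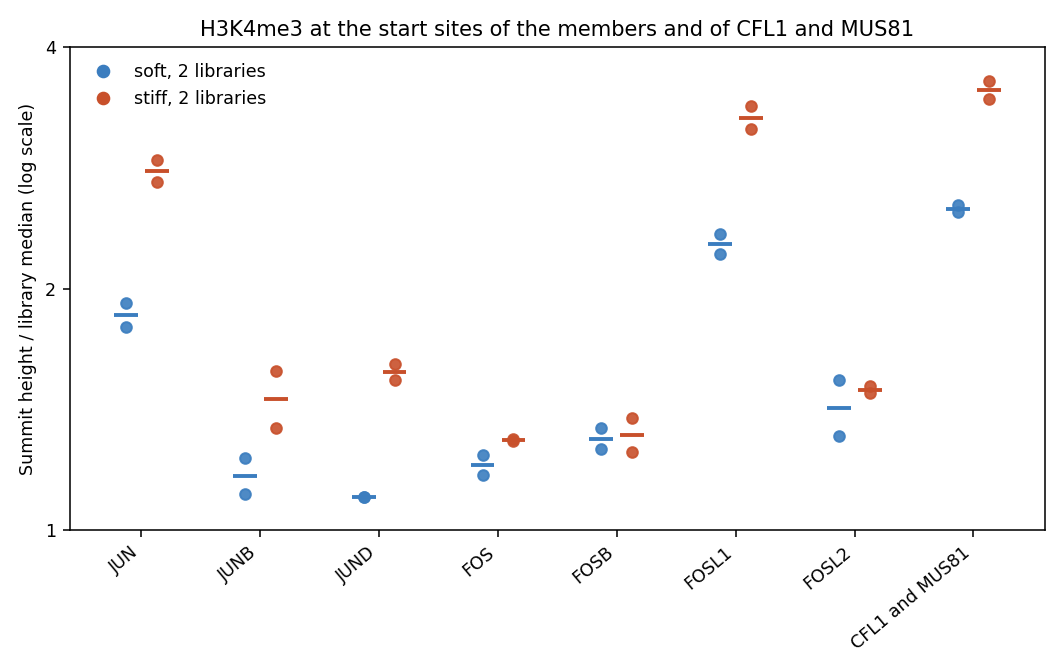
H3K4me3 summit height at the start sites of the 7 family genes and of the neighbours CFL1 and MUS81 (log scale). Heights are divided by the library median over regions called in all 4 libraries. Points are libraries (2 soft, 2 stiff) and bars are geometric means; stiff lies above soft at JUN (2.89 and 2.72 against 1.79 and 1.92), JUND, FOSL1 and the shared CFL1 and MUS81 region, which passed the test, and by less at JUNB (1.34 and 1.58 against 1.23 and 1.11) and FOS (1.30 and 1.29 against 1.24 and 1.17), which did not.

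At JUNB (chr19:12902018-12904729) relative heights were 1.23 and 1.11 on soft against 1.34 and 1.58 on stiff, a log2 difference of 0.31 ± 0.10 (SE) that missed the threshold (limma adjusted p = 0.0877). It was 0.38 without soft replicate 1, where it passed (limma adjusted p = 0.0193), and 0.19 without stiff replicate 2 (limma adjusted p = 0.567). At FOS (chr14:75743912-75746315) they were 1.24 and 1.17 on soft against 1.30 and 1.29 on stiff. The log2 differences at FOS, FOSB and FOSL2 were 0.11 ± 0.09, 0.01 ± 0.10 and 0.08 ± 0.10 (SE). Both stiff libraries were above both soft libraries at JUNB and FOS, and at FOSB and FOSL2 the matrices overlapped. The region 39.6 kb downstream of the FOSL1 start site, shared by the start sites of CFL1 (cofilin, which severs actin filaments) and MUS81 (a DNA endonuclease), also had more H3K4me3 on stiff. It had 334 and 422 fragments on soft against 590 and 901 on stiff, with a log2 difference of 0.49 ± 0.07 (SE, limma adjusted p = 0.00204).

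In all, 4 of the 38 H3K4me3 regions tested in the windows (10.5%) were higher on stiff and none were lower, against 2.29% and 2.17% of all 16098 regions tested. At an unadjusted p under 0.05, H3K4me3 differed at 3547 of these 16098 regions. The libraries differed in depth along with the matrix, with a median H3K4me3 summit of 120 and 141 fragments on soft against 151 and 207 on stiff, and over all regions the median log2 difference ran from -0.30 among the lowest summits to 0.05 among the highest. The part of depth in the 4 calls was not tested. The 4 calls held when each library was left out in turn. They were lost when the variance was not allowed to follow the height (limma adjusted p from 0.064 to 0.079), where 4 higher and 6 lower regions passed among all 16098. They were also lost with the deposited fold over local background in place of fragments, where no region passed among all 16098 (limma adjusted p from 0.394 to 0.828 for the 4). The log2 difference of the fold was 0.08 at JUN, 0.11 at FOSL1, 0.31 at JUND and 0.35 at CFL1 and MUS81.

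Most p-JUN regions in the windows lay away from start sites. Of the 48 regions called in all 4 libraries, 7 were at start sites of the family, 8 at start sites of neighbouring genes and 33 elsewhere. The number of such regions in a window was 11 at FOSB, 10 at FOSL2, 8 at JUN and FOSL1, 7 at JUND, 3 at FOS and 1 at JUNB. The median over all protein-coding genes was 3 in a median window of 127 kb, and 2.2% of genes had more than FOSB, 3.1% more than FOSL2 and 69% more than JUNB. The windows of FOSL1, JUNB, JUND and FOSB hold 10, 8, 5 and 4 other protein-coding genes, whereas those of JUN and FOS hold none.

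**Figure D2:**
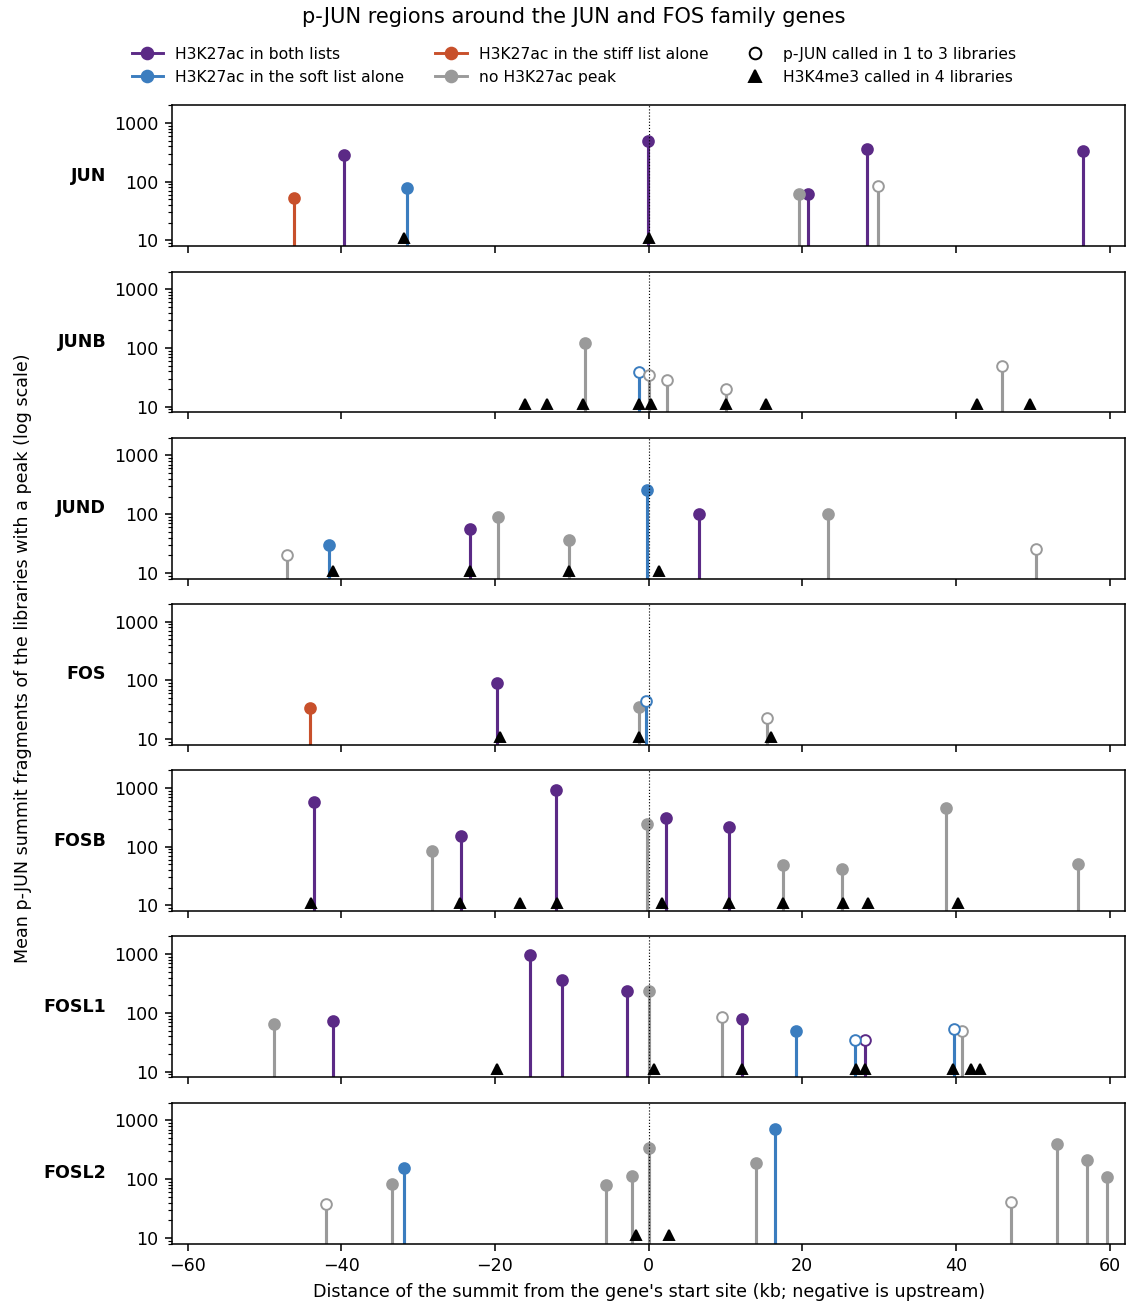
p-JUN regions in the 7 windows, with the distance of the summit from the start site of the gene (x axis, kb) and the mean summit fragments of the libraries with a peak (y axis, log scale), coloured by overlap with H3K27ac. Black triangles at the bottom of each panel show H3K4me3 regions called in 4 libraries, at no height; the highest summits lie 15.4 kb upstream of FOSL1 and 12.0 kb upstream of FOSB, and JUNB has 1 filled point.

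Around JUN, with no other coding gene in its window, 7 regions away from the start site were called in all 4 libraries. The highest, 28.4 kb downstream, had 392 and 346 fragments on soft against 321 and 399 on stiff. The region 39.6 kb upstream, in an intron of the long noncoding RNA gene LINC01135, had 283 and 250 on soft against 274 and 322 on stiff. Another, 56.5 kb downstream, had 382 and 325 on soft against 282 and 339 on stiff. All 3 overlapped H3K27ac on both matrices, and in raw fragments the matrices overlapped at each. Relative to the library median they overlapped at none of the 3. Stiff was then lower at the regions 28.4 and 56.5 kb downstream and higher at that 39.6 kb upstream.

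The JUNB region 8.3 kb upstream had 114 and 110 fragments on soft against 121 and 134 on stiff. The other 5 p-JUN regions of the JUNB window were each called in 1 library, with 20 to 50 fragments. Around JUND the highest region away from start sites lay 23.3 kb downstream, in an exon of IQCN, with 92 and 80 fragments on soft against 108 and 117 on stiff. Around FOS the highest lay 19.7 kb upstream, with 107 and 95 on soft against 71 and 90 on stiff. No flanking region at JUNB, JUND or FOS reached the height of the JUN region 39.6 kb upstream.

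The FOSL1 region 15.4 kb upstream had 1024 and 923 fragments on soft against 862 and 1066 on stiff. It ranked 54 among the 40433 regions. With the regions 11.3 kb upstream (373 and 314 on soft, 338 and 403 on stiff) and 2.8 kb upstream (232 and 222 on soft, 209 and 293 on stiff), it formed a row of 3 p-JUN sites between FOSL1 and the next gene, all with H3K27ac on both matrices. The FOSB region 12.0 kb upstream, in an intron of the overlapping gene ERCC1, had 1001 and 921 on soft against 755 and 971 on stiff and ranked 75. The FOSL2 region 16.4 kb downstream had 789 and 741 on soft against 586 and 713 on stiff and ranked 219. In raw fragments the matrices overlapped at the FOSL1 region 15.4 kb upstream and the FOSB region. At the FOSL2 region both soft libraries were above both stiff libraries. Relative to the library median, the FOSL1 region still overlapped. The FOSB region did not, with 12.21 and 13.16 on soft against 10.34 and 11.42 on stiff.

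p-JUN was called in both libraries of one matrix and neither of the other at 3 regions. On soft alone these were 50.4 kb downstream of JUND, in an intron of PDE4C, with 28 and 23 fragments, and 47.1 kb downstream of FOSL2, with 48 and 34. They make 3.08% of the 65 regions, against 1.74% of all p-JUN regions. On stiff alone there was 1, at 40.8 kb downstream of FOSL1 in the shared start region of CFL1 and MUS81, with 47 and 52 fragments (1.54%, against 2.75%). It lay inside the H3K4me3 region that was higher on stiff. All 6 of these heights were below the library medians of 60 to 64 fragments.

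Of the 48 regions tested, 2 were higher on stiff (4.17%) and 7 lower (14.6%), against 6.16% and 7.39% of all p-JUN regions tested. At an unadjusted p under 0.05, p-JUN differed at 11351 of all 40433 regions. The median log2 difference was -0.12 in the windows and -0.05 over all regions.

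The 2 regions higher on stiff lay far from the start sites of JUN and FOSL1. Of all p-JUN regions called in all 4 libraries, 69.5% had a higher mean summit than the JUN one and 57.8% than the FOSL1 one. The one 46.1 kb upstream of JUN (chr1:59295524-59296137, in an intron of LINC01135) had 41 and 37 fragments on soft against 57 and 74 on stiff, a log2 difference of 0.68 ± 0.19 (SE, limma adjusted p = 0.00822). The one 48.8 kb upstream of FOSL1 (chr11:65716485-65716862, in an intron of TSGA10IP) had 52 and 53 on soft against 71 and 87 on stiff, a log2 difference of 0.53 ± 0.17 (SE, limma adjusted p = 0.0272). At both, every stiff library was above every soft library.

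Among the 7 regions lower on stiff, 3 lay in the FOSB window. At the ERCC1 start site (chr19:45926773-45928237), a gene of nucleotide excision repair, p-JUN had 642 and 635 fragments on soft against 493 and 534 on stiff, a log2 difference of -0.37 ± 0.07 (SE, limma adjusted p = 2.08e-05). At VASP (chr19:46009533-46010912), an actin regulator of focal adhesions, it had 521 and 469 on soft against 396 and 444 on stiff, a log2 difference of -0.29 ± 0.07 (SE, limma adjusted p = 0.00253). At the region 12.0 kb upstream of FOSB (chr19:45958734-45959769) the log2 difference was -0.22 ± 0.06 (SE, limma adjusted p = 0.00493). The H3K4me3 regions at ERCC1 and VASP had log2 differences of 0.09 ± 0.10 and 0.02 ± 0.08 (SE) and did not pass the test.

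At FOSL2, p-JUN was lower on stiff at the region 16.4 kb downstream (chr2:28631630-28632557, log2 difference -0.30 ± 0.06 (SE), limma adjusted p = 0.000305). The region 31.8 kb upstream (chr2:28583691-28584433) had 204 and 144 fragments on soft against 121 and 148 on stiff, a log2 difference of -0.41 ± 0.12 (SE, limma adjusted p = 0.00739). The remaining 2 were the region 23.2 kb upstream of JUND (chr19:18415379-18415829), with 68 and 65 on soft against 54 and 41 on stiff (-0.55 ± 0.19 (SE), limma adjusted p = 0.03), and that 56.5 kb downstream of JUN (chr1:59192716-59193632, -0.24 ± 0.08 (SE), limma adjusted p = 0.0315). The JUND value ran from -0.25 without stiff replicate 2 (limma adjusted p = 0.452) to -0.86 without stiff replicate 1. Once centred, soft and stiff libraries did not overlap at any of the 9 regions.

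**Figure D3:**
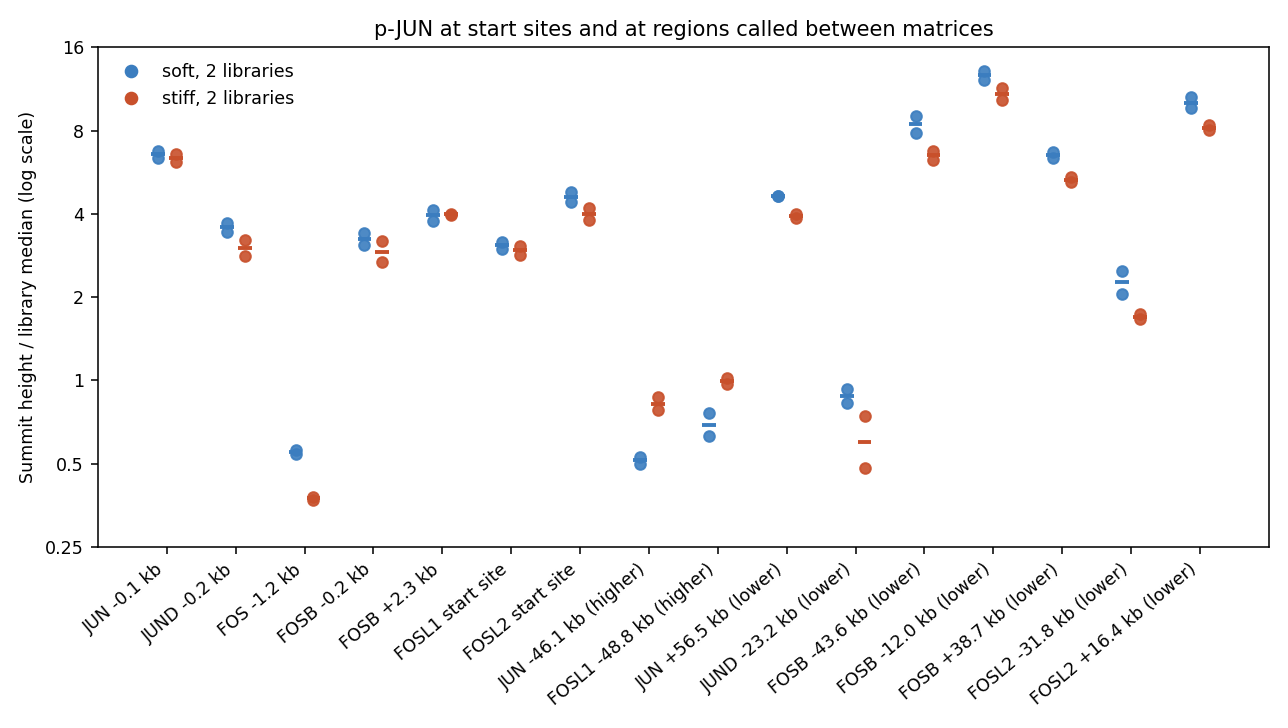
p-JUN summit height (log scale) at the 7 start site regions of the family and at the 9 regions called between the matrices. Distances from the start site are in kb, and heights are divided by the library median over regions called in all 4 libraries. Points are libraries (2 soft, 2 stiff) and bars are geometric means; JUN stands between 6.15 and 6.74 in all 4 libraries, whereas the region 46.1 kb upstream of it has 0.50 and 0.53 on soft against 0.78 and 0.87 on stiff.

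The p-JUN fit was repeated with each library left out, which leaves 1 library on one matrix and fewer to estimate the spread. A lost call therefore does not show dependence on that library. At all 9 regions the log2 difference kept its sign. It could not do otherwise, because the centred soft and stiff libraries did not overlap there. It ran from 0.60 to 0.76 at the region 46.1 kb upstream of JUN and from -0.86 to -0.25 at that 23.2 kb upstream of JUND. None of the 9 was kept in all 4 fits that left out a library. The number of the 48 regions that passed as higher and as lower was 0 and 4 without soft replicate 1, 1 and 1 without soft replicate 2, 3 and 5 without stiff replicate 1, and 0 and 8 without stiff replicate 2. These counts include regions outside the 9. Without soft replicate 2 both regions called higher were lost (limma adjusted p = 0.0709 upstream of JUN and 0.0779 upstream of FOSL1), and the region 31.8 kb upstream of FOSL2 was the one lower region that passed. The 8 without stiff replicate 2 include the start sites of JUND and FOSL2. With the deposited fold (limma adjusted p from 0.434 to 0.993 for the 9) or without the variance trend (limma adjusted p from 0.0654 to 0.327, with the same log2 differences) no region passed, in the windows or among all 40433 regions.

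H3K27ac was compared between the 2 merged lists without a test. Of the 33 H3K27ac regions in the windows, 19 were called on both matrices (57.6%), 11 on soft alone (33.3%) and 3 on stiff alone (9.09%), against 54.1%, 35.0% and 10.9% of all H3K27ac regions. At the 19 shared regions the summits summed to 1217 fragments on soft and 1065 on stiff. After scaling by the median ratio over all shared regions, the log2 ratio of stiff over soft was 0.02 (95% exact binomial interval -0.10 to 0.14). The intervals cover counting error only. No shared region differed by 1.5 times or more in either direction, against 6.17% of all shared regions higher on stiff and 4.92% lower, and the interval of each of the 19 included 0.

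In fragments, the highest H3K27ac summits were the upstream row of FOSL1. The region 15.4 kb upstream had 224 fragments on soft and 208 on stiff, that 11.6 kb upstream 173 and 130, and that 3.0 kb upstream 143 and 122. At the JUN start site H3K27ac had 40 fragments on soft and 31 on stiff (scaled log2 ratio -0.16, interval -0.88 to 0.55), and at FOSB 30 and 27 (0.06, interval -0.75 to 0.86). In fragments, the FOSL1 region 15.4 kb upstream thus had the highest p-JUN and the highest H3K27ac summit of the windows. By the deposited fold over local background it was the highest for neither mark. Its p-JUN fold was 7.31 to 7.8, against 15.85 to 18.06 at the region 56.5 kb downstream of JUN. Its H3K27ac fold was 4.58 on soft and 4.66 on stiff, against 9.44 and 8.78 at the region 41.1 kb upstream of FOSL1.

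On soft alone, H3K27ac was called at the JUND start site (32 fragments), at FOS (26 fragments), 1.4 kb upstream of JUNB (40 fragments), 31.4 and 32.5 kb upstream of JUN (27 and 30 fragments), at LSM4 in the JUND window (20 fragments), and at EFEMP2, at CFL1 and MUS81, and 19.2 kb downstream of FOSL1 in its window (32, 32 and 25 fragments). Both H3K27ac regions of FOSL2 were in the soft list alone, 31.6 kb upstream (30 fragments) and 16.2 kb downstream (24 fragments). Each overlapped a p-JUN region that was lower on stiff. On stiff alone, H3K27ac was called 46.0 kb upstream of JUN (17 fragments), where p-JUN was higher on stiff, 44.1 kb upstream of FOS (13 fragments) and 1.9 kb upstream of FOSL1 (70 fragments). The median summit was 21 fragments over all regions called on soft alone and 19 over those called on stiff alone. The soft list was also longer, with 18238 peaks against 13322, and when both lists were cut to the same length 5 regions were called on soft alone.

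**Figure D4:**
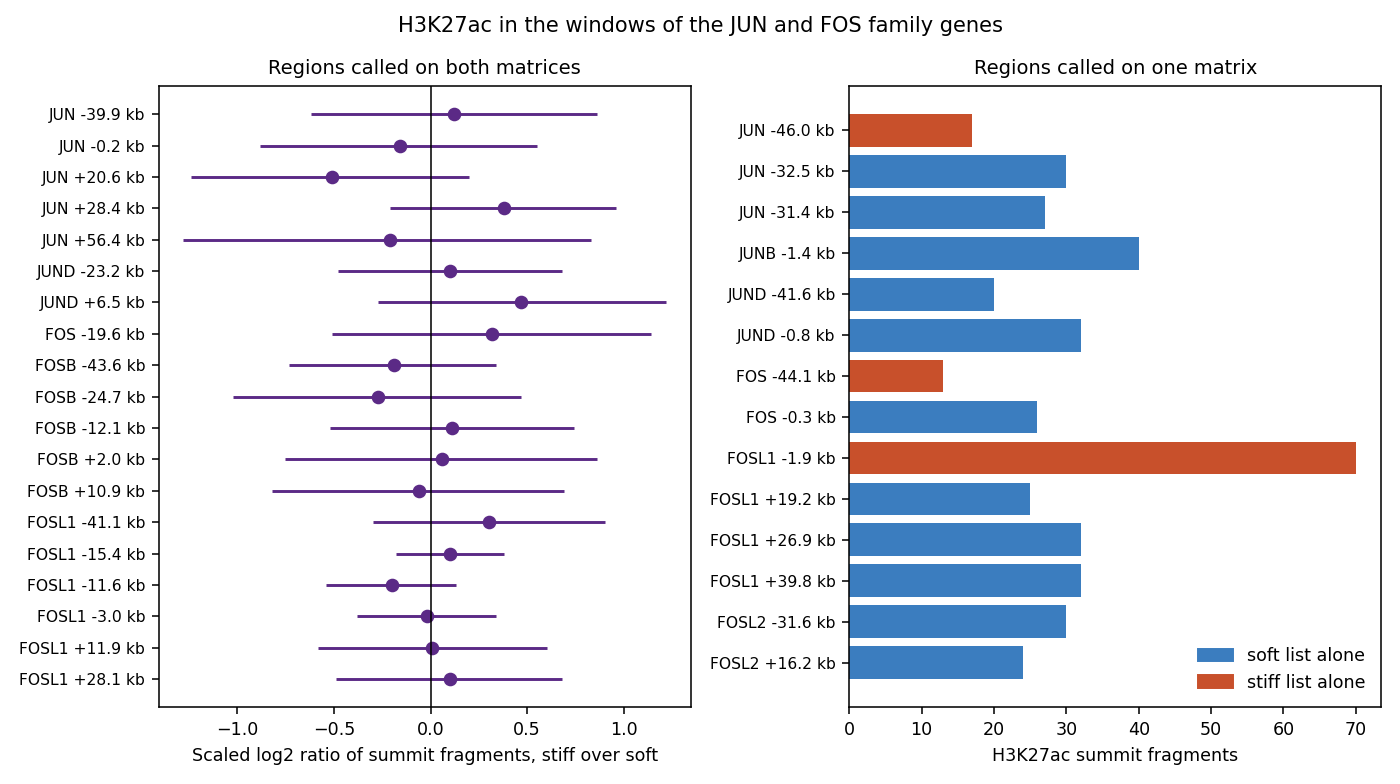
H3K27ac in the 7 windows, from 1 merged list per matrix. Left, the scaled log2 ratio of summit fragments, stiff over soft, with 95% exact binomial intervals at the 19 regions called on both matrices, all of which include 0; right, summit fragments at the 14 regions called on one matrix, 11 on soft and 3 on stiff, of which the FOSL1 region 1.9 kb upstream is the highest with 70.

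The overlap of p-JUN with H3K27ac was counted at the 48 regions called in all 4 p-JUN libraries. H3K27ac was present on both matrices at 18 (37.5%), on soft alone at 6 (12.5%), on stiff alone at 2 (4.17%) and in neither list at 22 (45.8%). Over all such p-JUN regions the shares were 24.0%, 11.9%, 3.45% and 60.6%. The log2 difference of p-JUN was below 0 at all 6 regions with H3K27ac on soft alone (median -0.27, from -0.55 to -0.21) and above 0 at both with H3K27ac on stiff alone (0.05 and 0.68). At the 18 regions with H3K27ac on both the median was -0.09, and at the 22 with it in neither list it was -0.11. Values below 0 were common throughout, at 34 of the 48 regions. They were found at 12 of the 18 with H3K27ac on both and 16 of the 22 with it in neither. Over all p-JUN regions the medians were -0.12 for soft alone, 0.01 for stiff alone, -0.10 for both and -0.02 for neither. The stiff H3K27ac list came from the 40K matrix and the stiff p-JUN libraries were titled TCP, and the part of this difference was not tested.

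H3K4me3 overlapped 19 of the 48 regions in all 4 H3K4me3 libraries and 23 in none. The same shares over all p-JUN regions were not computed, so these counts cannot be called high or low. Of the 48 regions, 31.2% lay within 1 kb of a coding start site, against 18.2% of all. The start site p-JUN regions of JUN, FOS and FOSL1 and the downstream one of FOSB overlapped it in all 4, whereas those of JUND and FOSL2 overlapped it in none. H3K4me3 was called in both stiff and neither soft library at 1 of the 47 regions, 28.2 kb upstream of FOSB, with 53 and 63 fragments (2.13%), against 1.77% of all H3K4me3 regions. None was called in both soft and neither stiff library, against 1.25%.

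The number of peaks in the windows overlapped between the matrices. p-JUN had 59 and 55 peaks on soft against 53 and 57 on stiff (two-sided exact permutation test, p = 0.667). H3K4me3 had 43 and 42 on soft against 43 and 45 on stiff (two-sided exact permutation test, p = 0.667). With 2 libraries against 2 this test cannot give a p below 0.33. H3K27me3 was called once, in soft replicate 1, over 514 bases 27.1 kb downstream of the JUND start site (chr19:18365073-18365586), and covered 0 bases in the other 3 libraries (two-sided exact permutation test, p = 1.0).

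Motifs were then counted at the 48 summits. A TRE (TGACTCA, or TGAGTCA on the other strand) or a CRE (TGACGTCA) had its centre within 50 bp of 20 of them (41.7%), against 35.6% of all p-JUN regions called in all 4 libraries. At regions away from start sites it was 14 of 33 (42.4%, against 40.4%), and at start sites of the family and their neighbours 6 of 15, against 14.3%. The 6 were the start sites of JUND (CRE), FOSL1, FOSL2, ERCC1 and VASP and a region near an IQCN start site 6.6 kb downstream of JUND (all TRE). The TRE at FOSL1 (chr11:65667854-65667860) spanned the start of its canonical transcript. The 2 CREs were at JUND and 33.4 kb upstream of FOSL2. With the centre held to within 25 bp the count was 9 of 48.

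After the sequence of the JUN start site had been seen, its variant site TGACATCA (TGATGTCA on the other strand) was also counted. It lay at 4 of the 48 summits (8.33%), at the JUN start site, 46.1 kb upstream of JUN, 48.8 kb upstream of FOSL1 and 57.1 kb downstream of FOSL2, against 1.57% of all regions. Both p-JUN regions that were higher on stiff are among the 4, and the regions 48.8 kb upstream of FOSL1 and 57.1 kb downstream of FOSL2 held a TRE as well. The CArG box, also added then, lay at 1 of the 65 regions (1.54%), that of FOS, against 0.531% of all p-JUN regions. The JUN and FOS start sites prompted these counts and are among the hits, so the shares are no independent evidence. By their letters these motifs cannot overlap one another.

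Other genes of the pathway were examined by lists. Among 12 AP-1 partners (such as ATF and BATF proteins, which are leucine zipper proteins as well), p-JUN was called at the start site in all 4 libraries at 8 and H3K4me3 at 9, beside 38.2% and 62.8% of all genes. None of 11 H3K4me3 regions of the partners passed the test for a height difference between the matrices. Among 8 genes of the JUN kinase cascade, p-JUN was called in all 4 libraries at 4 and H3K4me3 at all 8, beside the same shares of all genes. H3K4me3 was higher on stiff at MAP3K7 (TAK1, a kinase kinase kinase of the cascade) with a log2 difference of 0.31 ± 0.08 (SE, limma adjusted p = 0.041), at 1 of 11 regions.

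Among 13 other immediate early genes (ATF3 was in this list and that of the partners), p-JUN was called in all 4 libraries at 10 and H3K4me3 at 11. Of all genes, 38.2% and 62.8% had these calls. H3K4me3 was higher on stiff at IER3 (0.44 ± 0.11 (SE), limma adjusted p = 0.0272) and IER5 (0.43 ± 0.10 (SE), limma adjusted p = 0.0221), at 2 of 15 regions. p-JUN was lower on stiff at NR4A1, an orphan nuclear receptor (-0.49 ± 0.17 (SE), limma adjusted p = 0.0375). This was 1 of 11 regions, beside 7.39% of all p-JUN regions tested. H3K4me3 was thus higher at 3 of the 7 start site regions of the JUN and FOS genes, 1 of 11 in the kinase cascade, 2 of 15 among the immediate early genes and 0 of 11 among the AP-1 partners, beside 2.29% of all H3K4me3 regions tested. That share includes regions away from start sites, and the share at start site regions alone was not computed. The difference between these lists was not tested.

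The lists held 48163 to 54168 peaks for p-JUN, 18096 to 18857 for H3K4me3 and 6974 to 19843 for H3K27me3, and total reads per library are not analysed here. The lowest summit called had 14 or 15 fragments for p-JUN and 8 for H3K27ac, so a region without a peak may still be bound. Of the 8 stellate and myofibroblast markers, ACTA2, COL1A1, PDGFRB, TAGLN and VIM had H3K4me3 at the start site in all 4 libraries. It was absent in at least 1 library at the 4 hepatocyte markers and at the endothelial markers CDH5 and VWF, and present in all 4 at CD14, 1 of 3 immune markers, and EPCAM, 1 of 3 cholangiocyte markers.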

How the data were processed

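CUT&Tag peaks of LX-2 cells were analysed from 14 deposited lists. Per the submitters' notes and the study's methods, reads were trimmed with Trim Galore, aligned to hg19 with Bowtie2 and deduplicated with Picard. Peak caller settings for CUT&Tag are not given in the sources used here. The authors deposited for each peak the fold over local background (a ratio), −log10 p and q values and a score, and narrow peaks had a lowest −log10 q of 5.0.

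Summit fragments were recovered from the fold and −log10 p of each peak (relative tolerance 1e-04), which matched for at least 99.98% of peaks. Peaks sharing 1 bp were merged per mark. Regions called in all 4 libraries were compared on log2 summit fragments, centred on the library median over these regions. The fit used limma 3.58.1 (variance trend, Benjamini-Hochberg adjusted p below 0.05, R 4.3.3). H3K27ac had 1 list per matrix and no test. Peak counts were compared with exact permutation tests (scipy 1.17.1). Start sites came from GENCODE release 44 on GRCh37, and sequences from the hg19 reference. On simulated data, 85.5% of 200 regions changed 2-fold were recovered for p-JUN with 3 false calls, and 91.5% for H3K4me3 with 5. The calls in the windows were smaller, at most 0.68 on the log2 scale, and the simulation held no trend of the difference with height. It therefore does not give the recovery or the false calls for these data.

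All 7 genes were named, with their start site regions, the highest distal p-JUN region called in all 4 libraries and regions called on one matrix alone. Regions called by limma and the other flanking regions described were named after their values were seen. The p-JUN height comparison of the AP-1 partners is not reported here. The genes and lists were chosen with earlier results of these data known. Replicate numbers were taken from the labels. Alternatives covered window size, thresholds, list length, normalisation, region rules and left-out libraries.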

Additional observations from a re-analysis of the deposited data

How the results depend on the processing

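The p-JUN calls depended most on the processing. With the deposited fold in place of fragments, 0 regions were higher and 0 lower on stiff, the median log2 difference turned to 0.03, and the regions 56.5 kb downstream of JUN and 12.0 kb upstream of FOSB turned to 0.03 and 0.00. Quantile normalisation left 4 lower regions, and summits within 150 bp left 1 higher region of 34 tested. Without the variance trend, an alternative chosen after seeing the data, there were 0 in either direction. Leaving out each library gave 0 to 3 higher and 1 to 8 lower regions. For H3K4me3 the 4 higher regions became 0 with the deposited fold, 0 without the variance trend and 2 with summits within 150 bp, where 1 region was lower (18 tested). Over all regions, the deposited fold gave 0 calls for either mark, and fits without the trend gave 0 for p-JUN and 4 higher and 6 lower for H3K4me3. With summits within 150 bp, the JUN and JUND regions were not tested and both FOSL1 window regions were still called. The median H3K4me3 log2 difference was -0.02 to 0.08 over the left-out libraries. The p-JUN peak count difference turned to 0.5 at the stricter threshold. For H3K27ac, regions on stiff alone fell to 1 at a −log10 q of at least 10, those on soft alone to 5 with lists of equal length, and the summed log2 ratio was -0.19 without scaling. A TRE or CRE within 25 bp was found at 9 summits. The causes of the other changes were not tested.

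Libraries with the same replicate number did not deviate together once centred (correlation 0.05 for p-JUN and -0.06 for H3K4me3). Whether they shared a culture or a preparation is not in the labels, and this correlation cannot show it. With the replicate as a block, the differences in peak counts (-2.0 for p-JUN and 1.5 for H3K4me3) are the same by arithmetic. So is that in H3K27me3 covered bases (-257), and the block could not test these 3 differences. The blocked fits gave 3 higher and 9 lower p-JUN regions and 4 higher and 0 lower H3K4me3 regions, and the JUND start site passed for p-JUN (limma adjusted p = 0.0483). Signal below the calling threshold is not in the lists, so a region without a peak has only an upper bound.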
